A study of Mus musculus with 34 samples.

Results

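The regions described here are broad H3K4me3 promoter peaks, the peaks at gene starts whose end lay at least 4000 bp from their start in the deposited table of H3K4me3 promoter peaks. Of 10702 promoter peaks, 1381 were this wide (12.9%), and they belonged to 1373 genes, of which 8 had 2 broad peaks. They were read beside 8609 peaks of 1200 to under 4000 bp, called comparison peaks below, and a further 712 peaks were narrower. The broad peaks covered 25.5% of the summed width of all promoter peaks and held 24.9% of the H3K4me3 tags in them. The width came from peaks merged over libraries, as the peak names say, so it is 1 value per promoter and does not change between samples. A promoter could be broad through only those libraries in which its mark was high.

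The study followed adipogenesis in 3T3-L1 cells, a mouse line of preadipocytes that turns into fat cells in culture, and asked about the KDM5 family and cell cycle genes. Cells were transduced with lentivirus 4 days before induction, either with a hairpin against luciferase (shLuc) or with hairpins against Kdm5a, Kdm5b and Kdm5c (shKdm5ABC). Induction with dexamethasone, insulin, IBMX and serum began at day 0, which was 2 days after confluency. Polyadenylated RNA and H3K4me3 were measured in both kinds of transduced cells at day 0, 4 hours and day 2, with 2 libraries per group. KDM5A was measured in cells for which no transduction is stated at day 0, 4 hours and day 2, and KDM5C at day 2, again with 2 libraries each and with 1 input library. The series has 34 samples. Every RNA group carried a lentivirus, and the replicates are numbered as experiments without saying that they are separate cultures, so p-values measure only the spread between these samples, which may be technical.

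H3K4me3, the trimethylation of lysine 4 of histone H3, marks the promoters of active genes. SET1 and MLL enzymes write it, and KDM5A, KDM5B and KDM5C are demethylases that remove it. At most promoters the mark forms a narrow region around the start of transcription, while at some genes it reaches far into the gene body. Broad domains of this kind are known from many cell types at genes of cell identity, at highly transcribed genes and at clusters of developmental regulators.

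The sequences just before the start are shown for 7 genes with broad peaks, so that the promoters behind the results can be read. They are the 250 bases before the RefSeq start in build GRCm38.p6, 5′ to 3′ on the gene's strand, with each CpG in capitals. The build differs from that of the peaks (mm9), and the RefSeq start need not be the start to which a peak was assigned. Meis2 (chr2:116064620-116064869, minus strand), Tnrc18 (chr5:142817663-142817912, minus strand) and Zfp36 (chr7:28379229-28379478, minus strand) are the widest broad peaks whose gene had a sequence.
Meis2: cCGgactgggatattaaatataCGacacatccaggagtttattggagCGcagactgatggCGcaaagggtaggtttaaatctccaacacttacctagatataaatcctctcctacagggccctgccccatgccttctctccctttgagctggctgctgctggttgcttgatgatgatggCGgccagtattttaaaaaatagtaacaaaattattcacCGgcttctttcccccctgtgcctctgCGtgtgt
Tnrc18: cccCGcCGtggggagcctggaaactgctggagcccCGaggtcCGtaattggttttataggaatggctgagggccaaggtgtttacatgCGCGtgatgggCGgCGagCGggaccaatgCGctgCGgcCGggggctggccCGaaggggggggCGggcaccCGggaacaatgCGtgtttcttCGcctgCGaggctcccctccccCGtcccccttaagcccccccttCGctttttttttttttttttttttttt
Zfp36: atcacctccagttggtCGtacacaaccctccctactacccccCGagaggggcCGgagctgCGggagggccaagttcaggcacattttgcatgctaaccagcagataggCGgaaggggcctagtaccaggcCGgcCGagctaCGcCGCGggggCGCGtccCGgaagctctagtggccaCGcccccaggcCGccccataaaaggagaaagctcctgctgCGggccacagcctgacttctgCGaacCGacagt
Pim3 (chr15:88861944-88862193, plus strand) and Rrm2 (chr12:24708004-24708253, plus strand) had the highest ratio of observed to expected CpG among the other genes named for their width or for their RNA difference at day 2 of the knockdown. Both fell in RNA there.
Pim3: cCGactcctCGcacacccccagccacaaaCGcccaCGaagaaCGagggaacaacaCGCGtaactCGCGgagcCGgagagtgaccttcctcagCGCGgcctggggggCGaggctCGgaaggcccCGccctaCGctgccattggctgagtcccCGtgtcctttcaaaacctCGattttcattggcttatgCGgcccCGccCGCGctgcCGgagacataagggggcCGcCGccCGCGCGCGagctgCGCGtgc
Rrm2: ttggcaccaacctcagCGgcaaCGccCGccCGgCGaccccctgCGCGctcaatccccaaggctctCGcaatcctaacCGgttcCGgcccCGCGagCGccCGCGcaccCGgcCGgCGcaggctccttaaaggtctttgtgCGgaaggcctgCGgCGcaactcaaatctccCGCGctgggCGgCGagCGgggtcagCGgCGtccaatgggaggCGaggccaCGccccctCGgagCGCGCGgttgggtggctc
Apod (chr16:31314809-31315058, minus strand) and Tspan11 (chr6:127887372-127887621, plus strand) had the lowest ratio among the same genes, and both rose in RNA there. Pim3, Rrm2, Apod and Tspan11 were picked for extreme ratios from genes named for width or large RNA differences. A relation of CpG to the direction of the RNA difference was not tested and cannot be read from them.
Apod: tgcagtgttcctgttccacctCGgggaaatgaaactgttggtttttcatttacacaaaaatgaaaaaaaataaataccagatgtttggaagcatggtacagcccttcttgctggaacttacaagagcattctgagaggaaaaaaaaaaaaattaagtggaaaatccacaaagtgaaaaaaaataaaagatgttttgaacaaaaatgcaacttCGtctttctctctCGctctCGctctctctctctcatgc
Tspan11: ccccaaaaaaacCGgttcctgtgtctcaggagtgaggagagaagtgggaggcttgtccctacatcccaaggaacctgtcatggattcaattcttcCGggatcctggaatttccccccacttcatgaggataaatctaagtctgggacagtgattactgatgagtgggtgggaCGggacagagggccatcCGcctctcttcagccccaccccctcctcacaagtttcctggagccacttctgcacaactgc
The number of CpGs in these windows was 34 for Rrm2, 31 for Pim3, 20 for Tnrc18, 18 for Zfp36, 7 for Meis2 and 4 each for Apod and Tspan11, and the median over 32851 listed promoters was 6. GGGCGG on either strand, a motif bound by Sp1, was found in Tnrc18, Zfp36, Pim3 and Rrm2, and 32.7% of all listed promoters hold it in the same window. TATAAA on either strand was found in Meis2 and Tnrc18, and 12.4% of all listed promoters hold it. A match is a description of the letters in the window. Sequences were matched for 1063 of the 1373 genes (77.4%), which is under the 80% needed to read base composition over the whole set, so no such comparison is made.

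Before the results, 3 facts about the libraries bear on them. First, the H3K4me3 columns go against their names. At Cidec, Lipe and Fam83a, genes of fat cells and of day 2 in RNA, H3K4me3 was high in the columns named KDM5_KD_4h and KDM5_KD_D2 and not in the columns named Control_D2. At Vdr, whose RNA rose at 4 hours, it was highest in the columns named Control_D2 and KDM5_KD_D0. The column names are therefore used as names only, and no effect of time or of the knockdown on H3K4me3 is read from them. Second, replicate 2 of the RNA libraries had more RNA of fat cell genes than replicate 1 in every group. The summed level of 30 adipocyte lipid genes was 12817 against 10790 tags per kb in shLuc and 15212 against 10836 in shKdm5ABC cells at day 0, and 100897 against 75449 and 75857 against 47531 at day 2. At Cidec the gap at day 0 was 6.98 against 3.68 log2 tags per kb in shKdm5ABC and 3.53 against 3.22 in shLuc cells. The last fact is depth: library totals, from the size of 1 read on the authors' scale, were 8375000 to 13589000 reads for H3K4me3, 3871000 to 17601000 for KDM5A and 2947000 and 8128000 for KDM5C, while the RNA values are log2 and their depth is not known. The targets of the hairpins were lower at each time in shKdm5ABC cells: Kdm5a by 0.78 to 0.98, Kdm5b by 0.65 to 0.73 and Kdm5c by 1.33 to 1.40 on the log2 scale (limma, Benjamini-Hochberg adjusted p 0.0029 to 0.0216). In the labelled cell type, preadipocyte and fibroblast markers had a median RNA level of 11.49 log2 tags per kb, and 5 of the 10 with a promoter peak (Pdgfra, Col1a1, S100a4, Pdgfrb and Dlk1) had a broad one. Marker lists of neuronal, muscle, endothelial, macrophage and hepatocyte or gut cells had median levels of -3.07 to -1.11 and germ cell markers 1.14. None of their genes had a broad peak. Only 1 endothelial gene and 2 hepatocyte or gut genes of these lists had any promoter peak, so this lack says little.

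The widest broad peak, 18459 bp, lay at Meis2, a homeodomain cofactor of HOX proteins, at chr2:115881203-115899662 (mm9). Tnrc18 followed with 15110 bp, and then Plec with 14528 bp, which encodes the cytoskeletal linker plectin. Zfp36, whose protein destabilises AU-rich messenger RNAs, had 13214 bp, and Tfap2a, a transcription factor of ectoderm and neural crest, had 12631 bp. The peak at Neat1, the noncoding RNA of paraspeckles, was 12443 bp wide. Hoxa2 (11688 bp), Bahcc1 (11248 bp), Nr2f1 (11161 bp) and Ehbp1l1 (10643 bp) completed the 10 widest. Hoxa2 and Nr2f1 encode a homeobox factor and an orphan nuclear receptor. The median broad peak measured 4839 bp (interquartile range 4352 to 5695), against 2317 bp for comparison peaks.

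Width passed smoothly through the limit. Nxf1, Zfp687 and Cpsf3l had peaks of exactly 4000 bp, while Hoxd8, Gabpb1 and Ing2 had 3999, 3998 and 3997 bp and count as comparison peaks. H3K4me3 tags per kb were 279, 374 and 217 in the first 3 and 199, 372 and 505 in the last 3, so the groups overlapped at the boundary. The middle of a broad peak lay farther from the annotated start than that of a comparison peak, with a median distance of 939 against 325 bp. Noncoding RefSeq transcripts were the annotated gene of 88 broad peaks (6.37%, exact 95% interval 5.14 to 7.79) and of 283 comparison peaks (3.29%, 2.92 to 3.69). MicroRNA or small nucleolar RNA genes were named at 38 broad peaks (2.75%) and 72 comparison peaks (0.836%). The share of promoter peaks that were broad was highest on chromosome 17 (19.4%) and 11 (17.7%) and lowest on X (8.50%). Intervals cover counting error only.

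Broad peaks were unevenly spread over the gene lists. Over all genes with a promoter peak, 13.3% had a broad one. Of immediate-early genes, which answer stimuli within minutes and include the AP-1 factors, 28 of 36 did (77.8%). Zfp36 (13214 bp), Fosl2 (9996 bp), Per1 (8598 bp) and Zfp36l1 (8398 bp) were the widest of them. Of adipocyte lipid and secreted genes 15 of 20 were broad (75%), with Lpin1 (7696 bp), which makes diacylglycerol, Scd1 (7623 bp), which desaturates fatty acids, and Fasn (6114 bp), the fatty acid synthase. Of transcription factors of mesenchyme and fibroblasts 27 of 37 were broad (73.0%), among them Id2 (9727 bp), Nr2f2 (8596 bp), Hes1 (8519 bp) and Prrx1 (7556 bp). Of adipogenic transcription factors 14 of 23 were broad (60.9%), led by Rxra (8450 bp), the partner of PPARG, Nr4a1 (7608 bp) and Nfil3 (7466 bp), with Cebpa at 6401 bp.

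Of ligands, receptors and feedback inhibitors of growth factor pathways 35 of 66 were broad (53.0%), with Pdgfra at 9754 bp, the PDGF receptor of preadipocytes, and Fzd2, a Wnt receptor, at 8090 bp. Of matrix and cytoskeleton genes 22 of 42 were broad (52.4%), with Cyr61 at 9314 bp and the basement membrane collagen Col4a1 at 8676 bp. Of G1 cyclins and CDK inhibitors 11 of 21 were broad (52.4%), with Cdkn1a, the p21 inhibitor, at 10614 bp and Ccnd2 at 7752 bp. Of chromatin regulators 17 of 40 were broad (42.5%), among them Setd1b at 10631 bp, an H3K4 methyltransferase, and the bromodomain protein Brd2 at 9042 bp. Homeobox and other developmental factors had 15 of 43 (34.9%), ribosomal protein genes 7 of 32 (21.9%) and interferon-stimulated genes 5 of 24 (20.8%).

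Replication and mitosis genes were rarely broad, with 3 of 53 (5.66%): Rrm2, a subunit of ribonucleotide reductase, Mcm7 of the replicative helicase and Cdt1, which loads it. Of oxidative phosphorylation genes 1 of 37 was broad (2.70%), the cytochrome oxidase gene Cox4i1. Over all genes of a list the median RNA level was 9.98 log2 tags per kb for oxidative phosphorylation, 11.94 for ribosomal proteins, 7.60 for immediate-early genes, 6.18 for replication and mitosis and 5.54 for interferon-stimulated genes. The lists were chosen with earlier results of these data known and their counts are descriptions.

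**Figure D1:**
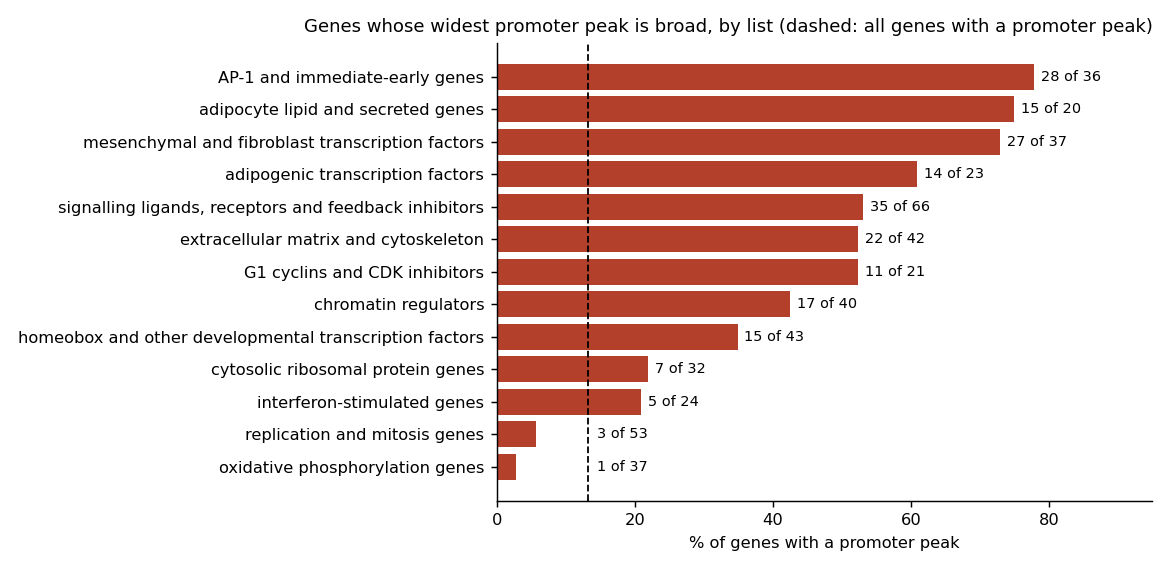
Horizontal bars give the percent of the genes in each of 13 lists, among those with an H3K4me3 promoter peak, whose widest peak is at least 4000 bp, and the labels give the counts. The dashed line is the share over all genes, 13.3%: immediate-early genes reach 77.8% and oxidative phosphorylation genes 2.70%.

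Genes with broad peaks had more RNA. Of the 1373 genes, 1361 had an RNA value and 1355 passed the filter on low values. Their median level over the 12 libraries was 8.01 log2 tags per kb, against 7.08 for tested genes of comparison peaks. The difference of the medians averaged 0.93 over the libraries and lay between 0.65 and 1.18 in each of them. It was 0.64 against comparison peaks of at least 2000 bp. Median levels rose over the width classes from 6.40 at 1200 to 2000 bp and 7.20 at 2000 to 3000 bp to 7.69 at 3000 to 4000 bp. Above the limit they were 7.89 at 4000 to 5000 bp, 8.07 at 5000 to 6000 bp, 8.52 at 6000 to 8000 bp and 8.31 in the 69 peaks of 8000 bp or more. The rise was thus steepest below 4000 bp and did not continue into the widest class. Broad peaks at weakly transcribed genes also occurred, as at Gm11978, with a mean level of 1.14.

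Broad peaks were longer but not denser in H3K4me3. The median was 245 tags per kb over the 12 columns (interquartile range 189 to 306), against 263 in comparison peaks. It stayed between 239 and 268 in the 7 width classes from 1200 bp up, and the narrower class is not given here. The density of the 10 widest ran from 164 tags per kb at Nr2f1 to 415 at Tnrc18, both within the range of comparison peaks.

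Nearly every broad peak overlapped KDM5A, and many overlapped several separate KDM5A peaks. At least 1 KDM5A peak lay in 1377 broad peaks (99.7%, exact 95% interval 99.3 to 99.9), against 98.2% of comparison peaks. At least 2 lay in 745 broad peaks (53.9%, 51.3 to 56.6) and in 10.5% of comparison peaks, and the share rose with width from 1.80% at 1200 to 2000 bp to 88.4% at 8000 bp or more. A wider region can hold more peaks by its length alone. KDM5A peaks covered a median of 73.3% of the width of a broad peak.

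Day 2 KDM5A tags, summed over the peaks in a promoter and averaged over the libraries, had a median of 305 in broad peaks (interquartile range 207 to 440) and 218 in comparison peaks. Counting the single highest KDM5A peak gave 282 against 216. Per kb of H3K4me3 peak the order turned, with 59.1 tags in broad and 90.1 in comparison peaks. By width class the sum rose from 169 to 538 tags while the density fell from 100 to 53.7 tags per kb. This density divides by the width that sets the classes. It also counts all tags of a KDM5A peak that only partly overlaps. Its fall with width and the turned order are therefore partly built in. The input library had medians of 21.6 and 12.6 tags in the same KDM5A peaks. In all, 2384 KDM5A peaks lay in broad peaks, which is 2.72% of all KDM5A peaks, with 13% of their tags.

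KDM5A varied widely among the broad peaks. Ehbp1l1 had the most day 2 tags, 2174 and 1537 in the replicates, and Iscu, which builds iron-sulfur clusters, had 2431 and 1275. Fau (mean 1708 tags), 2310036O22Rik (1521 tags) and B3galt4 (1431 tags) followed. The ribosomal protein gene Rpl35 had 1303 and 1153 tags in 8085 bp. Each peak is named for 1 gene, but more than 1 gene start was found in 2.24% of broad and 0.325% of comparison peaks. In peaks of 8000 bp or more this share was 10.1%, so a sum need not belong to the named gene alone. Among wide peaks with sums below the interquartile range, Meis1 had 43.1 and 44.8 tags over 9754 bp and Prrx1 had 93.1 and 124 over 7556 bp. Both encode transcription factors, and their H3K4me3 per kb (268 and 350.5) was above the median of broad peaks. Other peaks had fewer tags, as at Lsp1 with a mean of 17.2 over 9077 bp. Wide peaks thus carried both high and low KDM5A sums. Stat3, Clec2d, 1700017B05Rik and Ftx were the broad peaks that overlapped no listed KDM5A peak.

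KDM5C peaks, listed at day 2, also lay more often in broad peaks. They were found in 550 of them (39.8%, exact 95% interval 37.2 to 42.5) and in 20.3% of comparison peaks. The share rose from 14.1% at 1200 to 2000 bp to 65.2% at 8000 bp or more. As for KDM5A, a wider region can overlap more peaks by its length alone, and KDM5C per kb was not compared. Where present, KDM5C had a median of 24.1 tags in broad peaks, and both KDM5C libraries were shallow.

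**Figure D2:**
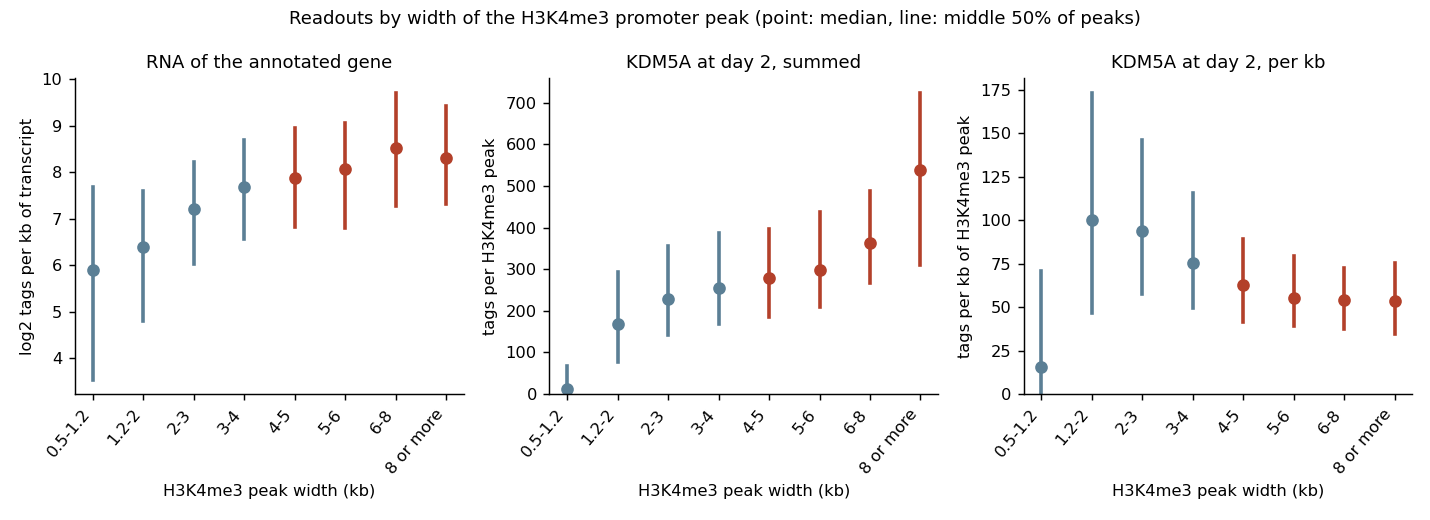
Median (point) and middle 50% (line) over H3K4me3 promoter peaks in 8 width classes (kb), broad peaks in red: RNA of the gene in log2 tags per kb, and day 2 KDM5A tags summed per peak and per kb of peak. From 1200 bp to 8000 bp or more the RNA median goes from 6.40 to 8.31 and the KDM5A sum from 169 to 538 tags, while KDM5A per kb goes from 100 to 53.7. KDM5A per kb divides by the width that sets the classes.

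The H3K4me3 columns formed 2 levels. The median density of broad peaks was 268 to 282 tags per kb in the columns named Control_4h, KDM5_KD_D0 and KDM5_KD_D2, and 208 to 223 in those named Control_D0, Control_D2 and KDM5_KD_4h, with no overlap. The replicate pair farthest apart, KDM5_KD_D0, had 282 and 276 tags per kb. In comparison peaks the higher columns had medians of 278 to 289 and the lower ones 235 to 247. The ratio of the broad to the comparison median was 0.845 and 0.856 in the columns named KDM5_KD_4h, 0.879 and 0.881 in Control_D0 and 0.935 and 0.928 in Control_D2, and 0.953 and 0.938 in Control_4h, 0.963 and 0.965 in KDM5_KD_D2 and 0.975 and 0.971 in KDM5_KD_D0. Summed over all promoter peaks, the higher columns held 7880998 to 8322232 tags and the lower ones 6559201 to 6809821.

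**Figure D3:**
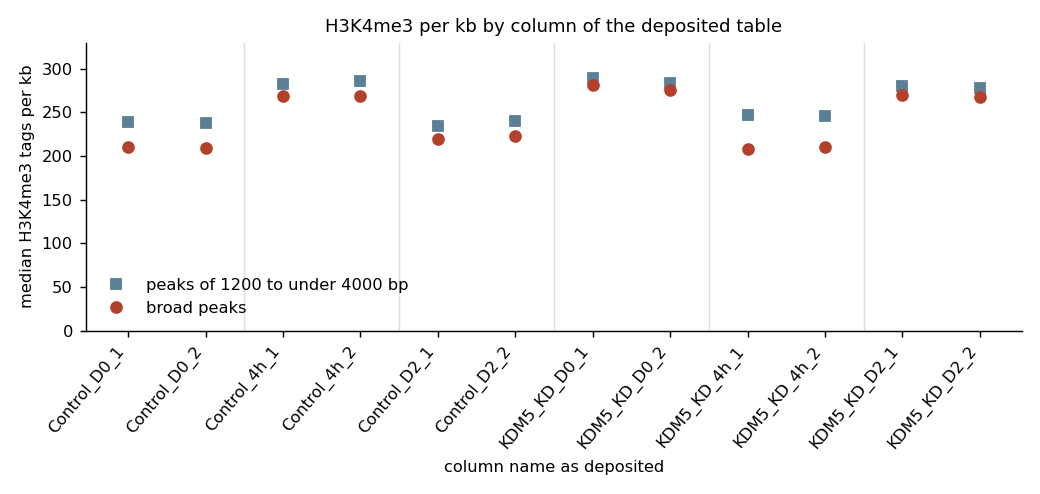
Points give the median H3K4me3 tags per kb of broad and comparison peaks in each of the 12 columns, by column name and replicate. The columns named Control_4h, KDM5_KD_D0 and KDM5_KD_D2 sit at 268 to 282 in broad peaks and the other 6 at 208 to 223.

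Single promoters moved far more than the medians. Lsp1, which encodes an actin-binding protein of leukocytes, has a broad peak of 9077 bp. Its H3K4me3 was 83.3 and 75.5 tags in Control_D0, 1222 and 777 in Control_4h, 114 and 59.8 in Control_D2, 1144 and 890 in KDM5_KD_D0, 61.9 and 66.9 in KDM5_KD_4h, and 1453 and 1242 in KDM5_KD_D2. The 3 column groups at the higher level were thus all above the other 3, as in the medians, with no overlap. Vdr, the vitamin D receptor gene, had 466 and 503 tags in Control_D0, 931 and 839 in Control_4h, 2881 and 2351 in Control_D2, 2498 and 2077 in KDM5_KD_D0, 549 and 612 in KDM5_KD_4h, and 1397 and 1425 in KDM5_KD_D2. Its RNA was 12.72 and 12.45 in shLuc and 12.44 and 12.33 in shKdm5ABC cells at 4 hours, against 6.84 to 7.84 in the other 8 libraries.

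Lipe, hormone-sensitive lipase of fat cells, had 596 and 601 tags in KDM5_KD_4h and 1174 and 701 in KDM5_KD_D2, and 38.2 to 126 tags in the other 8 columns. Its RNA was 10.98 and 11.40 at day 2 in shLuc and 10.63 and 11.43 in shKdm5ABC cells, and 5.47 to 7.30 elsewhere. Cidec, a lipid droplet protein, had 350, 389, 451 and 258 tags in the same 4 columns and 23.2 to 42.0 elsewhere. Mx2, an interferon-induced GTPase, was highest in Control_D0 with 1055 and 1074 tags and lowest in KDM5_KD_4h with 242 and 290. Its RNA was highest in shLuc cells at day 0, with 7.59 and 8.18. The groups named here did not overlap.

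**Figure D4:**
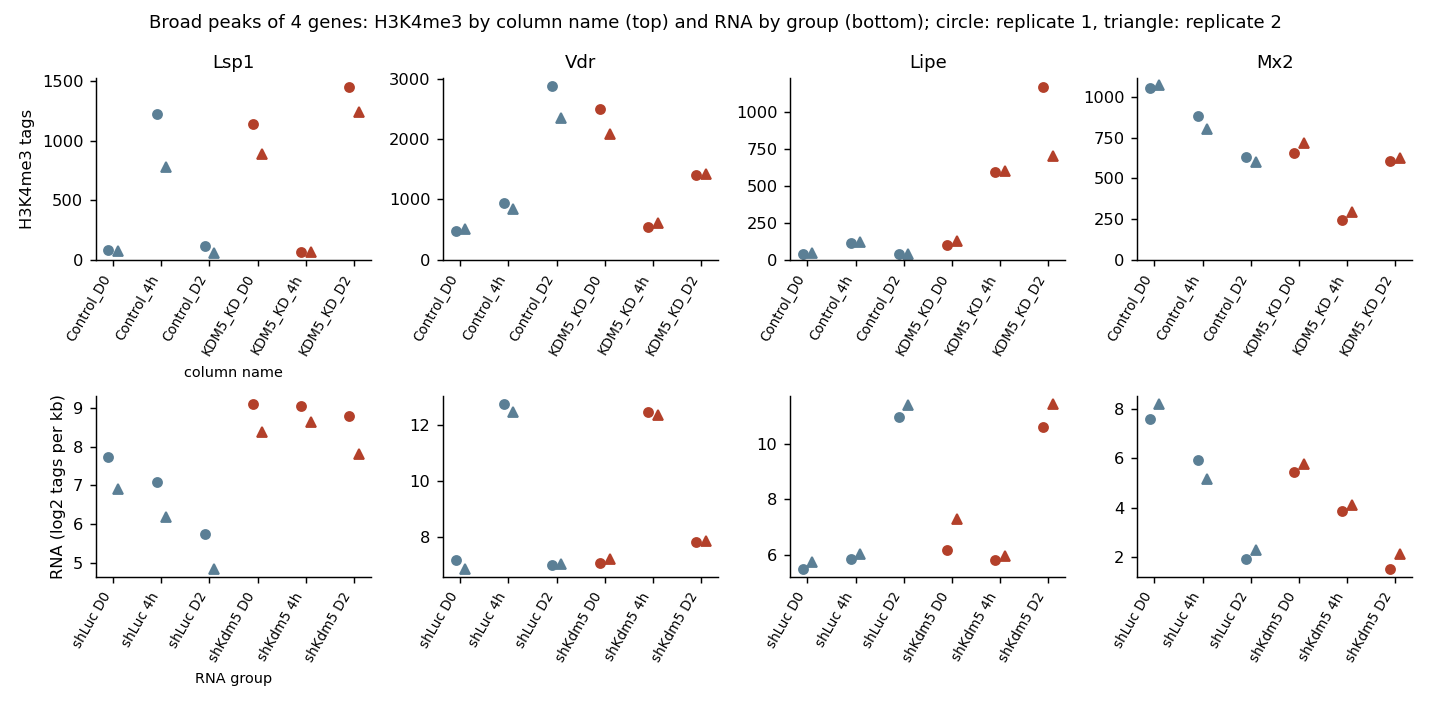
H3K4me3 tags in the broad peak by column name (top) and RNA in log2 tags per kb by group (bottom) for Lsp1, Vdr, Lipe and Mx2, with a circle for replicate 1 and a triangle for replicate 2. Lipe H3K4me3 is high in the columns named KDM5_KD_4h and KDM5_KD_D2 (596 to 1174 tags), while Lipe RNA is high in both kinds of cells at day 2.

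Tests between columns are given by name. The broad peaks were chosen by their width in the same H3K4me3 data. A peak could reach that width through only the columns where it was high. The counts of broad peaks and the largest differences are therefore not independent of that choice. Between KDM5_KD_D0 and Control_D0, limma on log2(tags + 1) called 723 broad peaks higher and 2 lower of 1381 at an adjusted p under 0.05, where 32.9% of all promoter peaks were called, 32.7% higher and 0.196% lower. The median log2 difference was 0.40 in broad and 0.26 in comparison peaks. Gm11978 (4.15, SE 0.25), Lsp1 (3.65, SE 0.30) and Gas7 (3.41, SE 0.29), a growth-arrest-specific gene, were the highest, and Mx2 (-0.63, SE 0.12) and B2m (-0.66, SE 0.19) were lower. Between KDM5_KD_4h and Control_4h, 63 were higher and 641 lower (35.9% of all peaks were called, 1.62% higher and 34.3% lower), with medians of -0.34 and -0.20. Fam83a (4.20, SE 0.35), Cidec (3.47, SE 0.36) and Lipe (2.34, SE 0.25) were higher there, and Apod (-4.37, SE 0.21), 3300005D01Rik (-4.23, SE 0.22) and Mir199a-1 (-4.13, SE 0.17) were lower. Apod had 37.7 and 33.8 tags against 882 and 650.

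Between KDM5_KD_D2 and Control_D2, 457 broad peaks were higher and 11 lower (24% of all peaks were called, 23.8% higher and 0.243% lower). C3 (4.62, SE 0.30), the complement component, Lipe (4.46, SE 0.25) and Smim5 (4.05, SE 0.25) were highest, while Vdr (-0.88, SE 0.13) and Pmvk (-0.73, SE 0.12) of the mevalonate pathway were among the lowest. Between Control_4h and Control_D0, 592 were higher and 0 lower (27.9% of all called, 27.8% higher and 0.00934% lower), led by Lsp1 (3.60, SE 0.30). Between KDM5_KD_D0 and Control_D2, 609 were higher and 3 lower (33.1% of all called, 33.1% higher and 0.0374% lower). Between KDM5_KD_D2 and KDM5_KD_4h, 626 were higher and 3 lower (29.6% of all called, 29.6% higher and 0.0561% lower), led by Lsp1 (4.36, SE 0.30) and Apod (3.81, SE 0.21). Between Control_D2 and Control_D0, columns of the same level, 82 were higher and 31 lower (1.97% of all called, 1.31% higher and 0.663% lower), with Vdr (2.42, SE 0.13) and the hexosamine enzyme Gfpt2 (2.20, SE 0.19) higher, and the lipid droplet gene Plin4 (-1.24, SE 0.09) lower.

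These counts lean on the level of the columns. Scaled by TMM factors over the promoter peaks, the same 7 comparisons gave 205 higher and 31 lower, 227 and 404, 142 and 35, 91 and 2, 135 and 33, 341 and 47, and 90 and 32, where 10.1%, 35.3%, 7.34%, 4.07%, 10%, 18.3% and 2.11% of all promoter peaks were called. The TMM median differences of broad peaks were 0.10, -0.06, -0.01, 0.05, 0.03, 0.11 and 0.05 in that order. The named promoters kept their direction, with Lsp1 at 3.36 between KDM5_KD_D0 and Control_D0 and Apod at -4.09 between KDM5_KD_4h and Control_4h. The replicate number paired the columns, and with it as a block, 1026 were higher and 16 lower, 145 and 854, 828 and 40, 1031 and 1, 943 and 30, 930 and 30, and 303 and 172, where 60.5%, 58.2%, 53.1%, 59.3%, 59.9%, 50.7% and 15.4% of all promoter peaks were called.

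In RNA of shLuc cells, genes of broad peaks changed widely within 4 hours of induction. Widths came from peaks merged over libraries, so a peak could be broad through the libraries where its gene was high. The shares called at 4 hours and day 2 against day 0 need not be independent of that choice, and this was not tested. These shares were also not split by RNA level. By limma, 465 of the 1355 tested genes rose and 290 fell (55.7%), where 42.3% of all tested genes were called, 20.7% higher and 21.6% lower. Among genes of comparison peaks 1762 rose and 1906 fell. The highest were Vdr (5.58, SE 0.13), the AP-1 subunit Fosl1 (5.24, SE 0.34), Gfpt2 (5.18, SE 0.18), glutamine synthetase Glul (5.04, SE 0.36) and Dusp1 (5.02, SE 0.17), a MAP kinase phosphatase that glucocorticoids induce. Fosl1 was at 6.48 and 7.36 log2 tags per kb at day 0 and 12.05 and 12.25 at 4 hours. Of 28 immediate-early genes with a broad peak, 21 rose and 2 fell, among them Errfi1 (4.20), Csrnp1 (3.64) and Myc (3.48), while Klf6 (-1.42) and Cited2 (-1.29) were the 2 that fell. The protease gene Adamts5 (-3.80, SE 0.19), Pcdh18 (-3.35), Pik3ip1 (-3.24), the clock output factor Dbp (-3.24) and Irf1 (-3.16) fell the most.

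Mesenchymal factors with broad peaks split at 4 hours, with 12 of 27 higher and 8 lower. Of all tested genes 20.7% were higher and 21.6% lower. Id2 (4.04), Id1 (3.31) and Id3 (2.75), inhibitors of bHLH factors, rose with Smad6 (2.12), and Hic1 (-1.61), Runx2 (-1.44) and Osr1 (-1.05) fell. Of adipocyte lipid genes 6 of 15 rose, with Scd1 (3.49) and Dgat2 (2.18), and Elovl6, Angptl4 and Plin4 fell. All 5 interferon-stimulated genes with a broad peak fell (Irf1, Irgm1, Mx2, Stat2 and Tap1).

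By day 2 in shLuc cells, 374 genes of broad peaks had risen and 503 had fallen against day 0 (64.7%, where 55% of all tested genes were called, 27.1% higher and 27.8% lower). Of comparison peaks 2396 genes rose and 2358 fell. As at 4 hours, these shares need not be independent of how broad peaks were chosen. Cidec rose from 3.22 and 3.53 to 11.23 and 12.09 log2 tags per kb (difference 8.28, SE 0.83), and Fam83a (6.86, SE 0.56), Lipe (5.58, SE 0.35), the triglyceride synthase Dgat2 (5.46, SE 0.50) and the acyltransferase Agpat9 (5.42, SE 0.71) followed. Of 15 adipocyte lipid genes 13 rose and Elovl6 fell, with a median of 3.27. Of 14 adipogenic factors 9 rose and 4 fell: Cebpa rose by 4.12, Klf5 by 2.11 and Rxra by 1.67, and Klf4 (-1.81), Ebf3 (-1.05), the glucocorticoid receptor gene Nr3c1 (-0.81) and Ebf1 (-0.72) fell. Rrm2 (3.64), Mcm7 (1.70) and Cdt1 (1.67), the 3 replication genes with a broad peak, all rose.

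The mesenchymal, signalling and matrix genes with broad peaks mostly fell by day 2, where 27.8% of all tested genes were lower and 27.1% higher. Of 27 mesenchymal factors 17 fell and 4 rose (median -0.73), with Osr1 (-3.58), Runx2 (-2.73) and Prrx1 (-2.56) among the lowest. Of 35 signalling genes 18 fell and 9 rose, with the PDGF receptor Pdgfrb (-3.90), Fgf7 (-3.62) and Ephb3 (-2.87) down. Of 22 matrix and cytoskeleton genes 17 fell and 3 rose (median -1.58). Thbs2 (-5.21, SE 0.19), Cnn2 (-4.93, SE 0.41) and Col1a1 (-3.32) fell, and the basement membrane and beaded filament collagens Col4a1, Col6a1 and Col6a2 were the 3 that rose. Over all broad peaks the lowest were Mx2 (-5.80, SE 0.32) and Aebp1 (-5.76, SE 0.20), a secreted protein of the matrix.

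At day 0 few genes of broad peaks passed the test of the knockdown. With 2 libraries per group such counts do not show how many changed, and they depended on the fit. By limma, 16 rose and 11 fell in shKdm5ABC against shLuc cells (2.0%), where 1.51% of all tested genes were called, 0.606% higher and 0.901% lower. Ltc4s, the leukotriene C4 synthase, was 1.60 higher (SE 0.28, adjusted p 0.0261) and Klf5 1.22 higher (SE 0.15, adjusted p 0.00583). Cebpa was at 6.55 and 7.17 against 5.63 and 5.91, a difference of 1.09 (SE 0.22, adjusted p 0.0466). It was 0.78 and no longer called without replicate 2 of shKdm5ABC day 0, and 0.95 and 1.23 and not called without replicate 1 or 2 of shLuc day 0. Mx2 (-2.28, SE 0.32), the amino acid transporter Slc7a5 (-2.12, SE 0.30), the stress factors Ddit3 (-1.70, SE 0.19) and Atf5 (-1.38) and the interferon-induced GTPase Irgm1 (-1.62, SE 0.22) fell. Of 5 interferon-stimulated genes 3 fell, Mx2, Irgm1 and Stat2 (-1.04). At 4 hours 16 rose and 8 fell (1.44% of all tested genes were called, 0.798% higher and 0.643% lower). Lsp1 (2.21, SE 0.46), the dipeptidase Dpep1 (2.00, SE 0.29) and Kazald1 (1.62) rose, and Mx2, Irgm1 and Stat2 fell again. The blocked fit called 108 higher and 78 lower at day 0 and 91 and 85 at 4 hours, where 9.44% and 9.68% of all tested genes were called. Leaving out any 1 of the 4 libraries compared left 3 to 8 calls at day 0 and 0 to 4 at 4 hours, and with the compared groups alone limma called 0 at both times (228 and 176 at an unadjusted p under 0.05, and 0.0813% and 0% of all tested genes called).

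At day 2 of the knockdown more genes of broad peaks passed the test than at day 0 or 4 hours, and most of these rose. By limma, 187 of 1355 rose and 24 fell (15.6%), where 9% of all tested genes were called, 5.66% higher and 3.34% lower. Among genes of comparison peaks 402 rose and 341 fell (9.04%). The median log2 difference was 0.11 for genes of broad peaks and -0.03 for those of comparison peaks. Because widths came from peaks merged over libraries, a peak could be broad through the libraries where its gene was high. The share of genes that rose need not be independent of how broad peaks were chosen, and this was not tested. By RNA level, the share of genes that rose was higher for broad than for comparison peaks in each of 4 classes. At a mean of 8 or more log2 tags per kb, 84 of 682 genes of broad peaks rose and 13 fell, and 87 of 2382 of comparison peaks rose and 122 fell. At 6 to 8, 81 of 499 rose and 10 fell, against 168 and 159 of 3490. At 4 to 6, 18 of 135 rose and 1 fell, against 106 and 49 of 1579. Under 4, 4 of 39 rose and 0 fell, against 41 and 11 of 766, and the median was 0.18 for broad and 0.23 for comparison peaks.

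Of 27 mesenchymal factors with a broad peak 10 rose and 0 fell: Prrx1 (1.52), Osr1 (1.42), Twist2 (1.32), Id2 (1.21), Sox4 (1.03), Twist1 (0.93), Runx2 (0.88), Foxc1 (0.76), Nr2f1 (0.70) and Nfix (0.49). Prrx1 was at 9.59 and 9.10 in shKdm5ABC and 7.86 and 7.79 in shLuc cells at day 2, and at 10.18 and 10.59 in shLuc cells at day 0. Of 15 developmental factors Meis1 (1.17), Meis2 (0.93) and Gli2 (0.93) rose and Hoxb2 (-0.87, SE 0.18) fell. Of 35 signalling genes 7 rose, with Fgfr3 (2.27), Pdgfra (1.19), Ephb3 (1.03), Fstl1 (0.93), Igf2r (0.92), Fgf7 (0.75) and Efnb1 (0.74), and 0 fell. Of 28 immediate-early genes Maf (1.71), Zfp36l1 (1.33) and Jun (0.95) rose. Of 22 matrix genes Timp2 (1.25), Mmp14 (1.01) and Myh9 (0.64) rose. Over all genes of broad peaks 13.8% rose, and neither the immediate-early nor the matrix count was above that share. Of the 5 preadipocyte and fibroblast markers with a broad peak Pdgfra rose, and the median was 0.83. The summed level of the 11 measured markers of that list was 20184 and 14356 tags per kb in shKdm5ABC and 14110 and 9197 in shLuc cells at day 2. That of 30 measured adipocyte lipid genes was 47531 and 75857 in shKdm5ABC and 75449 and 100897 in shLuc cells. The marker sum was higher and the lipid sum lower in shKdm5ABC cells in both same-numbered pairs. Their part in the differences was not tested, and in these bulk samples fewer cells of a type and less RNA per cell cannot be told apart.

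The 8 largest rises included Fgfr3 and genes outside these lists. Lsp1 was at 8.79 and 7.81 log2 tags per kb in shKdm5ABC and 5.75 and 4.83 in shLuc cells (3.01, SE 0.46, adjusted p 0.00562). Apod, a lipocalin, was at 9.71 and 9.63 against 6.52 and 6.99 (2.92, SE 0.27, adjusted p 0.00132). Dpep1 (2.77, SE 0.29), Rassf2 (2.57, SE 0.55), Arl4d (2.37, SE 0.28), Tspan11 (2.30, SE 0.34), Fgfr3 (2.27, SE 0.38) and the axon guidance ligand Slit2 (2.01, SE 0.25) followed. At Lsp1 and Apod the KDM5A sums were low, with 18.2 and 16.2 and with 13.6 and 15.5 tags at day 2. At Fgfr3 the mean was 161 tags, and the sums of the others are not given here. KDM5A was measured in cells for which no transduction is stated.

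Few genes of broad peaks were called lower at day 2 of the knockdown in the main fit, and the 3 replication genes were among them. Elovl1, a fatty acid elongase, fell the most, from 11.01 and 11.40 to 9.30 and 9.85 (-1.63, SE 0.19, adjusted p 0.0019). Cib2 (-1.10, SE 0.22), the kinase gene Pim3 (-0.97, SE 0.23), Amotl2 (-0.79, SE 0.14) and Chst11 (-0.73, SE 0.14) fell as well. Of the replication genes Rrm2 fell by 0.91 (SE 0.21, adjusted p 0.0287), Cdt1 by 0.78 (SE 0.16, adjusted p 0.0178) and Mcm7 by 0.56 (SE 0.14, adjusted p 0.0358). Rrm2 was at 8.66 and 8.82 against 9.75 and 9.54. Of 11 G1 cyclins and CDK inhibitors Cdkn1b, the p27 inhibitor, rose by 0.67 (SE 0.15) and E2f3 fell by 0.51 (SE 0.14). Of 15 adipocyte lipid genes Elovl6 rose by 0.79 and no other was called, and the median was -0.47. No chromatin regulator or ribosomal gene with a broad peak was called (0 of 17 and 0 of 7). Over all genes of broad peaks 15.6% were called, and these lists are small, so their lack of calls says little.

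The day 2 count rested on the libraries. It was 33 without replicate 1 of shKdm5ABC, 41 without replicate 2 and 112 without replicate 1 of shLuc, and 180 without replicate 2 of shKdm5ABC, and the blocked fit called 380 higher and 147 lower, where 28.1% of all tested genes were called. With the compared groups alone 5 calls were left (387 at an unadjusted p under 0.05, and 0.185% of all tested genes called). The comparison of shKdm5ABC with shLuc at day 2 and that of shLuc day 2 with day 0 share the shLuc day 2 libraries. Beside each other, Prrx1 had 1.52 and -2.56, Osr1 1.42 and -3.58, Fgfr3 2.27 and 2.57, Rrm2 -0.91 and 3.64, and Cdkn1b 0.67 and -1.56.

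The knockdown effect itself was also compared between times. By limma it was more positive at day 2 than at day 0 in 8 genes of broad peaks, where 0.31% of all tested genes were called, and more positive at day 2 than at 4 hours in 5 (0.148% of all tested genes). Between 4 hours and day 0 it differed in 0 (0% of all tested genes), with 64 at an unadjusted p under 0.05. Olfml3, a secreted olfactomedin protein, was called in both: its effect was 0.05 at day 0, 0.09 at 4 hours and 1.99 at day 2 (SE 0.15 each).

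**Figure D5:**
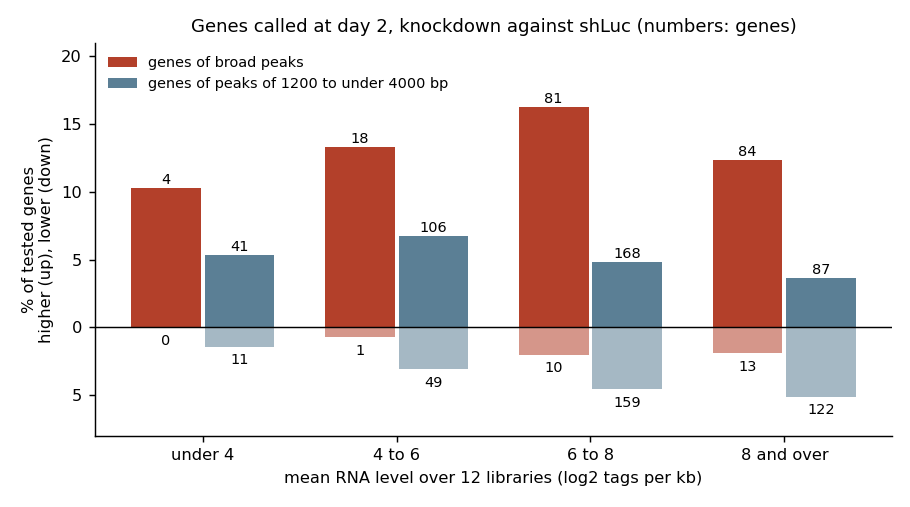
Bars give the percent of tested genes called higher (upward) or lower (downward, paler) in shKdm5ABC than in shLuc cells at day 2, in 4 classes of mean RNA level (log2 tags per kb), for genes of broad peaks (red) and of comparison peaks (blue), and the numbers are genes. In each class the upward bar is taller for broad peaks: at a level of 8 or more 84 of 682 genes rose, against 87 of 2382. Widths came from peaks merged over libraries, so membership need not be independent of these differences.

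Few KDM5A peaks in broad peaks passed the test between times, and with 2 libraries per group of unequal depth such counts do not show how many changed. Replicates differed in level, with medians per broad peak of 339 and 157 tags at day 0, 309 and 199 at 4 hours, and 336 and 274 at day 2. Of the 2384 KDM5A peaks in broad peaks, limma called 1 higher and 0 lower between 4 hours and day 0 (0.0606% of all KDM5A peaks were called, 0.0606% higher and 0% lower), 2 higher and 0 lower between day 2 and day 0 (0.173% of all, 0.136% higher and 0.0366% lower), and 5 higher and 3 lower between day 2 and 4 hours (0.607% of all, 0.123% higher and 0.483% lower). At an unadjusted p under 0.05 there were 65, 128 and 137, and edgeR on the recovered reads called 1, 5 and 1 (0.0149%, 0.639% and 0.676% of all KDM5A peaks). With TMM factors limma called 3 higher and 2 lower, 15 and 15, and 33 and 27 (0.3%, 1.06% and 3.36% of all KDM5A peaks). The KDM5A peak inside the broad peak of Cidec had 74.9 and 97.4 tags at day 2 and 26.8 and 7.75 at 4 hours (2.47, SE 0.59, adjusted p 0.0145). That of Fam83a had 99.9 and 64.2 against 20.1 and 10.3 (2.39, SE 0.60, adjusted p 0.0215). Both calls were lost without replicate 2 at 4 hours, without either day 2 library and with edgeR. Both genes also rose the most in RNA by day 2. A KDM5A peak assigned to Htra2, a mitochondrial protease, had 51.9 and 90.4 tags at 4 hours and 8.78 and 4.55 at day 0 (3.24, SE 0.68, adjusted p 0.0216), and fell by 3.15 to day 2. Its rise was lost without replicate 2 at 4 hours or replicate 2 at day 0, and its fall without replicate 2 at 4 hours or replicate 1 at day 2. Of the other called peaks, those assigned to Tpcn2 (2.37) and Gm15417 (2.28) were higher at day 2 than at day 0, and that of Mir199b was lower at day 2 than at 4 hours (-2.27). Each of these 3 calls was lost without replicate 1 at day 2 and with a pseudocount of 5 tags. Those of Tpcn2 and Gm15417 were also lost without replicate 2 at day 2 or at day 0, and that of Mir199b without either library at 4 hours and with edgeR.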

How the data were processed

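Per the submitters' processing notes, reads were mapped to mm9 and processed with Bowtie2 0.12.8, Subread and DESeq2 (RNA) and STAR and HOMER (ChIP). The deposited RNA values are log2 tags per kb, and the deposited ChIP tables give tags per peak as a signal scaled to a common total. Peak positions are the authors' as deposited. Members are all promoter peaks of at least 4000 bp, and these and the gene lists were chosen with earlier results of these data known. RNA was joined by RefSeq ID (1145 peaks) and, a choice made after seeing the match, by Entrez ID (224 peaks). RNA (log2 at least 1 in at least 2 libraries, 13534 of 17515 transcripts) and log2(tags + 1) were fitted with limma 3.58.1 (R 4.3.3) in 1 fit per assay over all groups, with a mean-variance trend and Benjamini-Hochberg adjustment over all features, threshold 0.05. Named genes are the 10 widest and the 3 on either side of 4000 bp, the largest differences (8 in each direction for the knockdown at day 2, otherwise 5 for RNA and 3 for ChIP) among calls whose groups do not overlap and whose mean log2 RNA is at least 3 or KDM5A mean at least 20 tags, the 5 with most and fewest KDM5A tags, and the 6 widest of each list. Other list members named were chosen after their values were seen, mostly for passing the test. KDM5A peaks that overlap an H3K4me3 peak by at least 1 bp were summed. Alternatives were the replicate block, TMM factors, edgeR 4.0.16 on whole reads recovered from the tag steps (tolerance 0.1), other pseudocounts, filters and widths, and leaving out libraries. Same-numbered RNA and H3K4me3 libraries deviated together (r 0.381 to 0.657 and 0.519 to 0.802 over 15 pairs of groups each), so the numbers were taken to pair them. For KDM5A r was 0.0730 to 0.530 over 3 pairs, and they were not. With 2 libraries per group the smallest exact permutation p is 0.333, so single values carry no such test. The scripts were tested on simulated data. The virus input library was not analysed here.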

Additional observations from a re-analysis of the deposited data

Results flagged for a closer look

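The knockdown effect on RNA differed between times, by limma on the difference itself, in 8 genes of broad peaks between day 2 and day 0, where 0.31% of all tested genes were called. In each the log2 difference of shKdm5ABC from shLuc was more positive at day 2: by 2.61 at Apod (SE 0.39), 1.94 at Olfml3 (SE 0.21), 1.85 at Irgm1 (SE 0.31), 1.62 at the protease gene Adamts5 (SE 0.27), 1.61 at Stat2 (SE 0.20), 1.61 at the AP-1 partner Jdp2 (SE 0.26), 1.33 at Ajuba (SE 0.22) and 1.05 at Phyhd1 (SE 0.16), with adjusted p of 0.0253 to 0.0478. Between day 2 and 4 hours 5 genes differed (0.148% of all tested genes were called), again with more positive values at day 2: Olfml3 by 1.90 (SE 0.21), Aebp1 by 1.88 (SE 0.29), Stat2 by 1.49 (SE 0.20), Nynrin by 1.28 (SE 0.20) and the lysophosphatidic acid receptor gene Lpar1 by 1.27 (SE 0.19), with adjusted p of 0.0240 to 0.0487. At Irgm1 and Stat2, interferon-stimulated genes, the knockdown effect was -1.62 and -1.04 at day 0 and 0.23 and 0.57 at day 2. Olfml3 was at 7.15 and 7.42 log2 tags per kb in shKdm5ABC and 5.12 and 5.48 in shLuc cells at day 2, and its knockdown effect was 0.05 at day 0. Between 4 hours and day 0 limma called 0 (64 genes of broad peaks had an unadjusted p under 0.05). The calls rest on single libraries. Between day 2 and day 0 there were 40 without replicate 2 of shKdm5ABC day 2, 1 without replicate 2 of shLuc day 2, and 0 without any 1 of the other 6 libraries. Between day 2 and 4 hours there were 44 without replicate 2 of shKdm5ABC day 2, and 0 to 2 without any other library.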

How the results depend on the processing

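At least 3500 bp gave 2096 broad peaks and at least 5000 bp gave 607. With the replicate block, RNA calls became 186 (from 27) at day 0, 176 (from 24) at 4 hours and 527 (from 211) at day 2 of the knockdown, and H3K4me3 calls 868 (from 468, KDM5_KD_D2 against Control_D2), 1032 (from 592, Control_4h against Control_D0), 973 (from 612, KDM5_KD_D0 against Control_D2), 960 (from 629, KDM5_KD_D2 against KDM5_KD_4h) and 475 (from 113, Control_D2 against Control_D0). It changed no other H3K4me3 or RNA count by over 1.5 times, apart from 232, 234 and 2 calls (from 8, 5 and 0) for the difference of the knockdown effect of day 2 from day 0, day 2 from 4 hours and 4 hours from day 0. Those settings on the difference of effects were chosen after seeing the data. It fell to 3 and 1 without the trend and to 0 and 0 without the filter, and was 0 to 40 and 0 to 44 without 1 library. Without the trend the knockdown gave 14 at day 0 (5 higher and 9 lower), without the filter 15 at 4 hours, and with the compared groups only 0, 0 and 5. TMM factors gave 236 (from 725, KDM5_KD_D0 against Control_D0), 177, 93, 168 and 388 H3K4me3 calls for KDM5_KD_D2 against Control_D2, Control_4h against Control_D0, KDM5_KD_D0 against Control_D2 and KDM5_KD_D2 against KDM5_KD_4h. At 5000 bp RNA calls were 8, 10, 101, 342 and 384, H3K4me3 calls 357, 346, 225, 296, 292, 328 and 69 and KDM5A calls 0 between 4 hours and day 0 and 4 between day 2 and 4 hours, since fewer peaks were counted. KDM5A calls between 4 hours and day 0, day 2 and day 0, and day 2 and 4 hours were 13, 27 and 35 with the block (the numbers did not pair these libraries), 5, 30 and 60 with TMM factors and 3, 5 and 5 in peaks of at least 20 tags. By edgeR the last 2 were 5 and 1. Without 1 library they were 0 to 4, 0 to 8 and 0 to 31. Without 1 library RNA calls were 3 to 8, 0 to 4, 33 to 180, 586 to 625 and 773 to 781 in the order of the report's knockdown and shLuc comparisons, and H3K4me3 calls 394 to 565, 543 to 639, 247 to 322, 214 to 459, 343 to 442, 446 to 525 and 21 to 65. The RNA level difference of 0.93 was 0.64 against comparison peaks of at least 2000 bp. The KDM5A day 2 difference of 86.8 tags (86.25 and 87.36 in single libraries) was 66.2 for the highest peak, 84.9 over peaks with at most 1 gene start found, and -31.0 per kb. The cause of these differences was not tested except where named. Of the named single results, 0 reversed, and 29 of 342 settings for H3K4me3, 137 of 504 for RNA and 28 of 72 for KDM5A lost the call. Depth also limits KDM5A, whose libraries ran from 3871000 to 17601000 reads.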
